A study of Mus musculus with 8 samples.

Results

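The genes described here encode the proteins of synaptic vesicles, of the machinery that fuses vesicles with membranes, and of the postsynaptic density. Membership was set by gene symbol, with earlier results of these data known: synaptotagmins, synapsins, synaptophysin, synaptogyrins, the SNARE families (SNAP, VAMP and syntaxin) with their binding proteins, SV2, complexins, RIM and Unc13 proteins, NSF and its adaptors, synucleins, Bassoon, the Dlg and Homer scaffolds, Shank proteins and subunits or inhibitors of calcium/calmodulin-dependent protein kinase II (CaM kinase II). Of 12422 probe sets on the MG U74Av2 array, 72 carried 1 such symbol, and they stood for 58 of the 8251 genes named by the annotation. The families include members, such as Vamp8 and Snap23, that work in membrane traffic of most cells and are not particular to neurons.

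Whole spinal cords of female SJL/J mice of 8 to 12 weeks were measured on 8 Affymetrix arrays, 5 from mice with experimental autoimmune encephalomyelitis (EAE) and 3 from healthy controls. EAE, an inflammatory demyelinating disease that serves as a model of multiple sclerosis, was induced by an injection of PLP peptide, a fragment of a myelin protein, under the skin of the flank, and controls received vehicle. EAE mice had an average clinical grade of 2.5 and were killed at day 14, day 12 to 14, day 17, day 14 and day 15.5 for EAE arrays 1 to 5. Each array held the pooled RNA of 2 mice, so 10 EAE and 6 control mice were measured. For EAE induction the study's methods also name complete Freund's adjuvant with Mycobacterium tuberculosis, mixed with the peptide, and pertussis toxin injected into the abdomen. They name neither for the healthy controls, so the disease and these agents cannot be told apart. The EAE mice alone had also received murine serum albumin into a vein 3 hours before they were killed, so the disease and this injection cannot be told apart. Batches 1, 2 and 3, each processed on 1 day, held 1 EAE and 1 control array each, and batches 4 and 5 held EAE arrays 4 and 5 alone.

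Synaptic vesicles store transmitter at nerve endings and release it when calcium enters the terminal. Synaptotagmins sense the calcium, and a SNARE on the vesicle (a VAMP) pairs with SNAREs on the plasma membrane (a syntaxin and SNAP-25) to drive fusion, after which NSF and its SNAP adaptors take the complex apart for another round. On the receiving side, scaffolds of the Dlg and Homer families hold receptors and CaM kinase II in the postsynaptic density. The spinal cord carries dense synaptic input onto motor neurons and interneurons, while glia and immune cells use other members of the same SNARE families for secretion and for uptake into vesicles. In whole tissue, fewer cells of a type and less RNA per cell cannot be told apart.

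The values were deposited on a log2 scale and are called log2 signal here, and a difference of 1 is a doubling. The median log2 signal of the arrays lay between 6.08 and 6.13. Arrays of 1 group correlated at 0.975 to 0.991 (EAE) and 0.990 to 0.995 (control) over all probe sets, and arrays of different groups at 0.931 to 0.951. EAE was compared with control in limma with treatment and batch as terms over all 12422 probe sets, and a probe set was called at a Benjamini-Hochberg adjusted p under 0.05. With batch in the model the fold changes are the mean of the differences within batches 1, 2 and 3, and EAE arrays 4 and 5 do not enter them. Only 2 residual degrees of freedom stood behind each probe set before limma's moderation, so the precision was limited by the number of arrays.

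Stretches of 250 bases before the transcription start are shown for 2 genes that were called higher in EAE and 2 that were called lower, so that both directions of call are represented. The sequences are those of RefSeq for mouse build GRCm38.p6, written 5′ to 3′ on the gene's own strand, and capitals mark motif matches on either strand. Vamp8 lies on the minus strand (chr6:72390668-72390917), Syngr2 on the plus strand (chr11:117809417-117809666), Syt2 on the plus strand, shown for the first of its starts (chr1:134646362-134646611), and Camk2b on the minus strand (chr11:6065749-6065998).
Vamp8: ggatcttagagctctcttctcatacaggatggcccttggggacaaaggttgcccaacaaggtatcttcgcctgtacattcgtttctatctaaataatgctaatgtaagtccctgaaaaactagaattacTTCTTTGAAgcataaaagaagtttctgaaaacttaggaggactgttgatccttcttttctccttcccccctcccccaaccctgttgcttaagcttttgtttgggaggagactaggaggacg
Syngr2: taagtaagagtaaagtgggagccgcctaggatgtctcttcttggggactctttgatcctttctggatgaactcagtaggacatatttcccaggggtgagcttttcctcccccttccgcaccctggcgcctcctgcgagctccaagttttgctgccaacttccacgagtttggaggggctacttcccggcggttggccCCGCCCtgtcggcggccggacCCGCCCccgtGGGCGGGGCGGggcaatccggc
Syt2: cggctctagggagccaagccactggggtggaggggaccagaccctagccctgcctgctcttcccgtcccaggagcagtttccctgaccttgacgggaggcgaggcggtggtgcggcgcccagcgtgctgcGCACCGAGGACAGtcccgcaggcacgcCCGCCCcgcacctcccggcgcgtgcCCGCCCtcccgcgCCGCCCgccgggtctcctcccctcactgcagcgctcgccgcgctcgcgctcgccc
Camk2b: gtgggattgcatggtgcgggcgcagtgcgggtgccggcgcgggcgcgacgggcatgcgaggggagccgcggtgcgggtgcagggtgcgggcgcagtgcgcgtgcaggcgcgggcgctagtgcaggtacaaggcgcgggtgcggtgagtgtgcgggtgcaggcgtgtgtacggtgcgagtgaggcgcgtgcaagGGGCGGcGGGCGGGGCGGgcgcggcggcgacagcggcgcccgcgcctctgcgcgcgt
In Vamp8 the capitals mark a gamma-activated sequence (GAS, TTCNNNGAA, the element bound by STAT dimers) starting 121 bases before the start. In Syngr2, Syt2 and Camk2b they mark GC boxes (GGGCGG, bound by Sp1 family proteins), and neighbouring boxes overlap by 1 base in Syngr2 and in Camk2b. The remaining capitals of Syt2, starting 120 bases before the start, mark the core of a repressor element 1, the site of REST, which silences neuronal genes in other cells; its letters are GCACC, any 2 bases and GGACAG.

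The Vamp8 window held 3 CpG dinucleotides at 43.6% GC and that of Syngr2 16 at 62.0% GC. The windows of Syt2 and Camk2b held 30 and 44 CpG at 76.0% and 78.4% GC, against medians of 6 CpG and 52.4% GC over all 32851 windows. A window was at hand for 48 of the 58 genes. Genes can have several windows, and the 48 genes had 67. GAS was found in 7.02% of all windows (8.13% of all genes with a window) and in 2 member genes, Vamp8 and Syn2. An interferon-stimulated response element core (GAAANNGAA) was found in 7.13% of all windows (8.18% of genes) and in 7 member genes, Dlg4, Homer1, Stx5a, Stx7, Syn2, Syt6 and Vamp1, none of which was called. The repressor element 1 core was in 0.0761% of windows, 25 in all (0.0814% of genes), and among the members in Syt2 alone. A GC box was in 32.7% of all windows and 58.2% of the members' windows, or in 35.4% of all genes with a window and 72.9% of such member genes (35 of 48), among them 2 of the 5 called higher and 7 of the 9 called lower that had a window. The motifs were chosen after the expression values were seen, and a match describes letters and not a bound site.

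Of the 72 probe sets, 12 (16.7%) were called lower in EAE and 7 (9.72%) higher, against 11.4% called lower and 8.26% called higher among all probe sets. The median difference of the 72 was -0.17 on the log2 scale, against -0.05 over all probe sets, and the range was -0.68 to 1.09. With 1 value for each gene (its brightest probe set, by the mean of all 8 arrays), 10 of 58 genes (17.2%) were called lower and 5 (8.62%) higher, against 13.5% and 9.19% of all genes, and the median was -0.22, against -0.05 over all genes. Among the 72 probe sets, 54 differences were negative and 34 had an unadjusted p under 0.05, 26 of them lower in EAE and 8 higher. Over all 12422 probe sets 7747 differences were negative and 4085 had an unadjusted p under 0.05. All 5 EAE arrays lay below all 3 control arrays in 14 probe sets and above them in 6, against 15.1% and 10.9% of all probe sets. The members' shares of calls and of non-overlapping arrays thus lay within a few percentage points of the background. Negative differences and an unadjusted p under 0.05 made up a larger share of the members than of all probe sets, which was not tested. The members are described below by their own values.

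Under further quantile normalization of the deposited values, 7 members were called lower and 7 higher (1204 and 993 of all probe sets, against 1412 and 1026 as reported). The number of calls depended on single batches, among the members and over the whole array. With either array of batch 2 left out, 5 members were called lower and 4 higher (571 and 710 of all probe sets). With either array of batch 3 left out, limma called 0 lower and 1 higher, the brighter Vamp8 probe set (225 and 521 of all probe sets), with 18 lower and 7 higher at an unadjusted p under 0.05. All 19 called members had the same sign of difference within batches 1, 2 and 3, so leaving out an array of 1 batch could not change their sign. Members that lay below the array median on all 8 arrays numbered 17, and limma called 0 of them, with 2 at an unadjusted p under 0.05. Of the other 55, 12 were lower and 7 higher (21.8% and 12.7%, against 18.2% and 12.0% of the 7041 probe sets of that kind on the array).

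**Figure D1:**
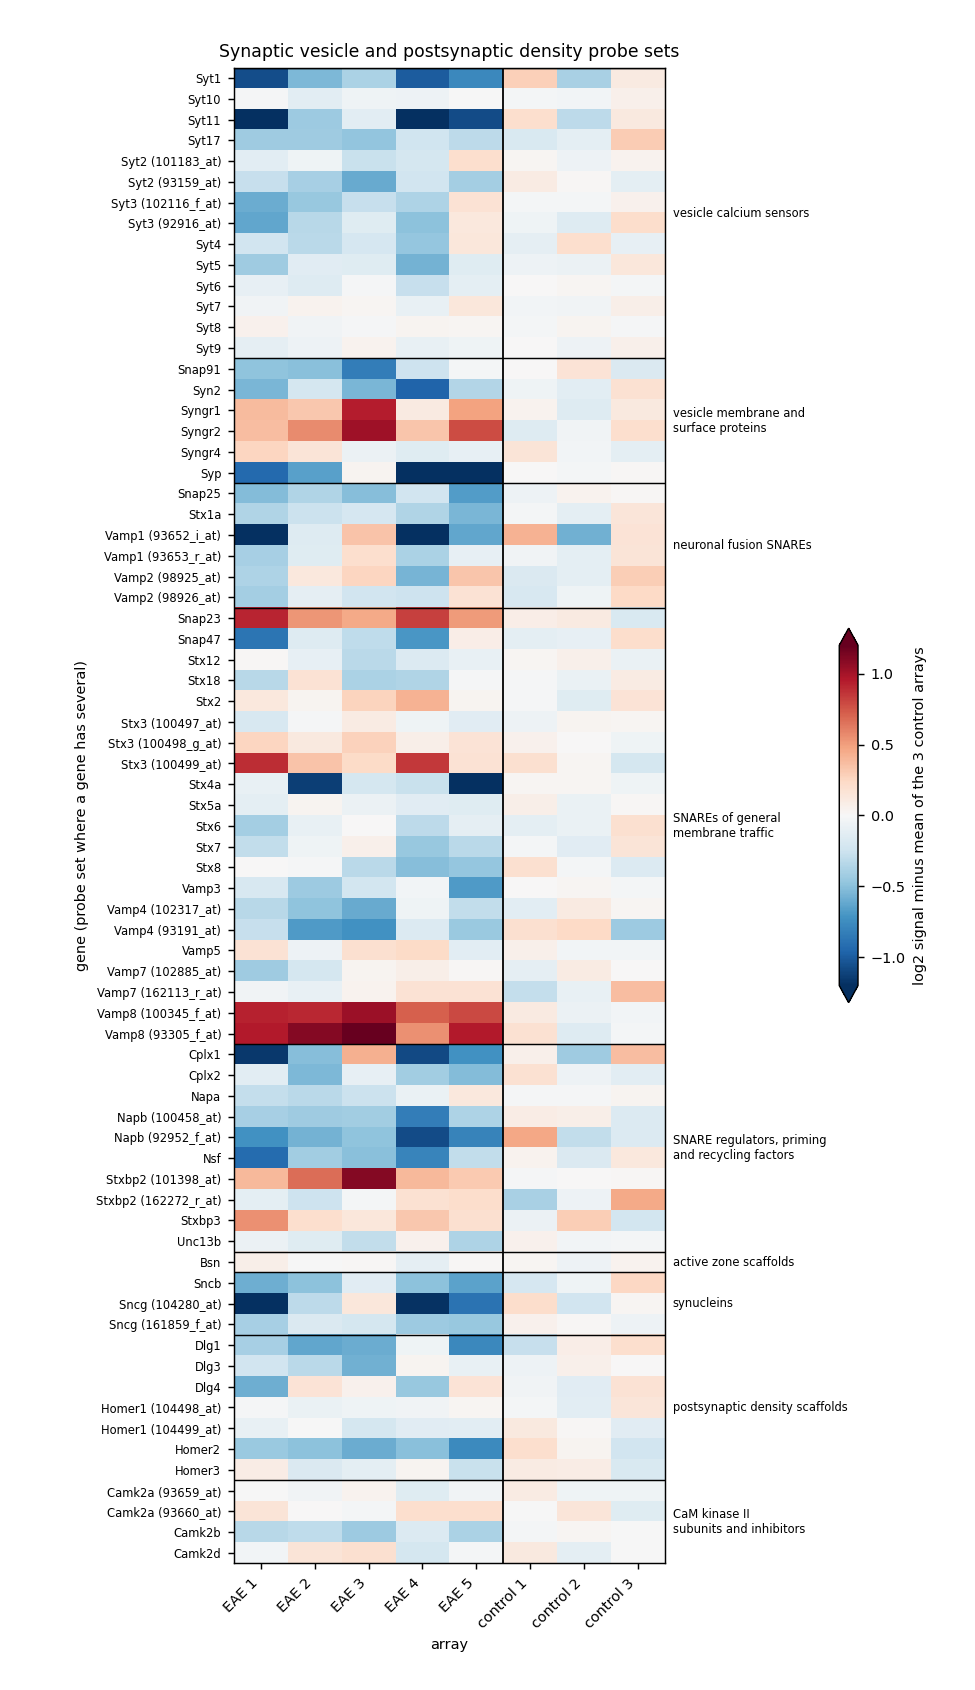
Log2 signal of the 72 probe sets (vertical axis, grouped by role) on each of the 8 arrays (horizontal axis), coloured by the difference from the control mean of that probe set, with colours clipped beyond the ends of the scale. Both Vamp8 probe sets are high on all 5 EAE arrays, Snap25, the brighter Syt2 set and Camk2b are low on all 5, and most of the other members show smaller or mixed differences.

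Of the 6 genes for vesicle membrane and surface proteins 2 were called higher and 1 lower, against 9.19% and 13.5% of all genes. Syngr2 and Syngr1, which encode synaptogyrins, vesicle membrane proteins of which Syngr2 is the form used outside neurons, were higher in EAE by 1.57-fold and 1.46-fold, and Snap91, which encodes the clathrin assembly protein AP180 that helps recycle vesicle membrane, was lower by 1.52-fold. Syngr2 stood at 6.89, 7.09, 7.54, 6.85 and 7.30 log2 signal on EAE arrays 1 to 5 and at 6.37, 6.47 and 6.72 on control arrays 1 to 3. The groups did not overlap, and the difference was 0.65 (SE 0.0828, limma adjusted p = 0.00847), or 0.52, 0.62 and 0.82 within batches 1, 2 and 3. Syngr1 stood at 6.83, 6.77, 7.40, 6.56 and 6.94 in EAE and at 6.50, 6.29 and 6.57 in controls. EAE array 4 lay just below the highest control, and the difference was 0.55 (SE 0.112, limma adjusted p = 0.0297).

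Snap91 stood at 9.13, 9.11, 8.78, 9.36 and 9.59 in EAE and at 9.62, 9.78 and 9.44 in controls. EAE array 5 lay within the control range, while the 3 arrays that shared a batch with a control were lower than it by 0.49, 0.67 and 0.65 (limma log2 fold change -0.61, SE 0.0722, adjusted p = 0.00719). Without batch in the model the Snap91 difference was -0.42 (limma adjusted p = 0.124) and that of Syngr1 was 0.45 (adjusted p = 0.107), so both calls ended. The limma adjusted p without an array of batch 3 was 0.0556 for Syngr2, 0.0988 for Syngr1 and 0.063 for Snap91.

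Syp, which encodes synaptophysin, the classic vesicle marker, was not called. It stood at 6.51, 6.78, 7.47, 6.14 and 5.75 in EAE and at 7.45, 7.42 and 7.46 in controls. The 3 controls lay close together, whereas the EAE arrays spread widely and EAE array 3 lay at the control level (log2 fold change -0.52, SE 0.188, limma adjusted p = 0.130). Syn2, a synapsin that tethers vesicles to the cytoskeleton, lay below the controls on all 5 EAE arrays (7.00 to 7.74 against 7.83 to 8.14) with an adjusted p of 0.0881 in limma. Syngr4 differed by 0.11 (limma adjusted p = 0.335).

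Among the 12 synaptotagmin genes (14 probe sets), the calcium sensors of vesicle fusion, 2 probe sets were called lower (11.4% of all probe sets were) and the other 12 did not pass. Syt2, the fast sensor of many spinal and brainstem terminals, was lower in EAE by 1.34-fold. Its brighter probe set stood at 10.26, 10.14, 9.93, 10.31 and 10.13 in EAE and at 10.63, 10.55 and 10.42 in controls. The groups did not overlap, the difference was -0.43 (SE 0.0664, limma adjusted p = 0.0147), and within the 3 shared batches it was -0.37, -0.41 and -0.49. A dimmer Syt2 probe set differed by -0.15 (limma adjusted p = 0.309). The adjusted p of the brighter set was 0.0682 without an array of batch 2 and 0.0917 without one of batch 3.

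Syt3, another calcium-binding synaptotagmin, passed in its dimmer probe set alone, whose probes Affymetrix marked as shared within a sequence family. That set stood at 5.94, 6.08, 6.26, 6.16 and 6.71 in EAE and at 6.51, 6.51 and 6.58 in controls, with a difference of -0.44 (SE 0.0767, limma adjusted p = 0.0199). EAE array 5, which shared no batch with a control, lay above all 3 controls, and without batch in the model the difference was -0.30 (limma adjusted p = 0.215). The brighter Syt3 set differed by -0.37 (adjusted p = 0.0575).

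Syt1, the main sensor of fast release in the forebrain, and Syt11, which does not bind calcium in the usual way, had larger differences with a larger spread. Syt1 stood at 6.82, 7.34, 7.49, 6.88 and 7.10 in EAE and at 8.16, 7.48 and 7.99 in controls, with a difference of -0.66 (SE 0.232, limma adjusted p = 0.121). Syt11 stood at 7.13, 8.15, 8.46, 7.11 and 7.52 in EAE and at 8.79, 8.28 and 8.71 in controls, with a difference of -0.68 (SE 0.317, limma adjusted p = 0.222). In both genes EAE arrays 1 and 4 were the lowest of the 8, and the difference within batch 1 (-1.34 and -1.66) was larger in size than those within batches 2 and 3. Syt17 (difference -0.44, adjusted p = 0.0658) and Syt5 (-0.23, adjusted p = 0.130) lay below the controls on all EAE arrays and were not called by limma. Syt4 differed by -0.25 (adjusted p = 0.177), and Syt6, Syt7, Syt8, Syt9 and Syt10 differed by no more than 0.09 in either direction.

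**Figure D2:**
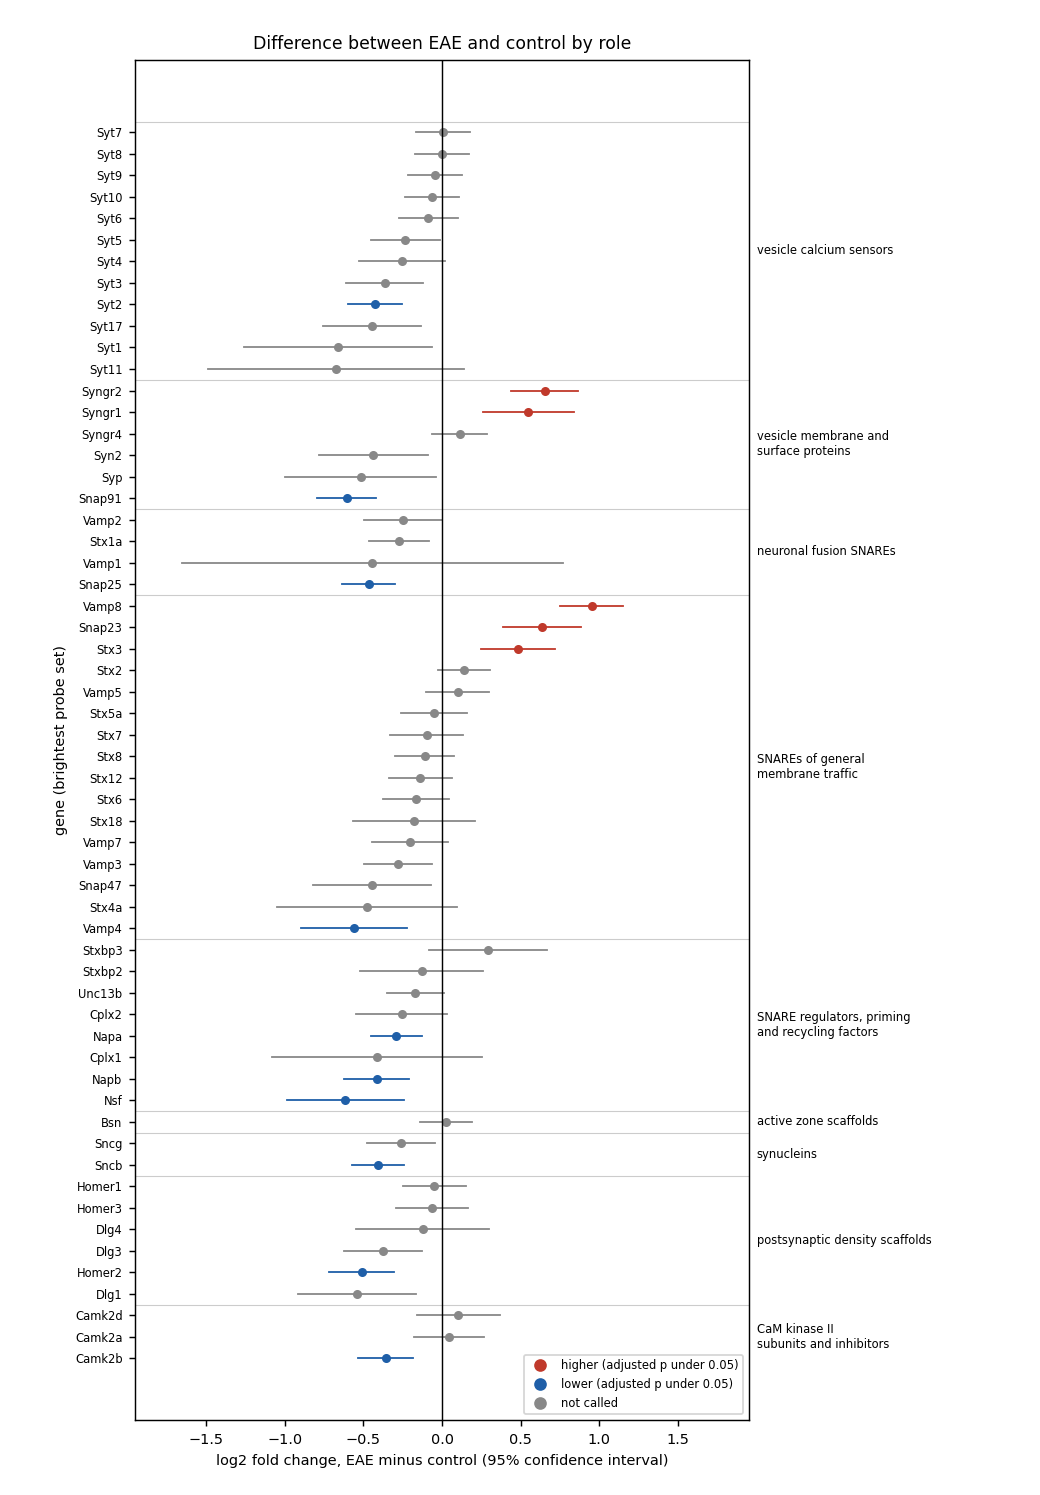
Log2 fold change of EAE against control (horizontal axis) for the brightest probe set of each of the 58 genes (vertical axis, grouped by role), with confidence intervals at the 0.95 level from limma. The 5 genes called higher are Syngr1, Syngr2, Vamp8, Snap23 and Stx3, the 10 called lower are spread over 8 of the roles, and Vamp1 has the widest interval.

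Of the 4 neuronal fusion SNARE genes 1, Snap25, was called lower, and of the 16 SNARE genes of general membrane traffic 3 (Vamp8, Snap23 and Stx3) were called higher and 1 (Vamp4) lower, against 9.19% higher and 13.5% lower of all genes. Snap25, the plasma membrane SNARE of nerve terminals, stood at 11.23, 11.39, 11.24, 11.52 and 11.08 in EAE and at 11.70, 11.80 and 11.77 in controls. The groups did not overlap, and the level was lower by 1.38-fold (log2 fold change -0.47, SE 0.0665, limma adjusted p = 0.0117), with -0.46, -0.41 and -0.53 within batches 1, 2 and 3. The call ended without an array of batch 3 (difference -0.44, limma adjusted p = 0.0804).

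Stx1a, its syntaxin partner, lay below the controls on all 5 EAE arrays (5.69 to 6.03 against 6.12 to 6.38) and missed the threshold (difference -0.27, limma adjusted p = 0.0634). Vamp2, the synaptic vesicle SNARE of most terminals, differed by -0.25 in its brighter probe set (limma adjusted p = 0.151) and by 0.01 in the dimmer one. Vamp1, the vesicle SNARE of many spinal terminals, had the widest spread of all members. It stood at 6.94, 8.30, 8.80, 6.86 and 7.83 in EAE and at 8.87, 7.87 and 8.62 in controls. EAE arrays 1 and 4 were the lowest, and the differences within batches 1, 2 and 3 were -1.93, 0.42 and 0.18 (log2 fold change -0.44, SE 0.473, limma adjusted p = 0.603). A dimmer Vamp1 set differed by -0.12 (limma adjusted p = 0.502).

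Vamp8, an endosomal SNARE used in endosome fusion and in secretion by immune and other cells, had the largest differences of the 72 probe sets. Its brighter set stood at 8.29, 8.26, 8.39, 8.08 and 8.15 in EAE (8.23 ± 0.12, SD, n = 5) and at 7.47, 7.29 and 7.32 in controls (7.36 ± 0.10, SD, n = 3). Every EAE array exceeded every control, the level was higher by 1.93-fold (interval 1.68 to 2.22), and the log2 fold change was 0.95 (SE 0.0774, limma adjusted p = 0.0025), with 0.82, 0.97 and 1.06 within the shared batches. The dimmer set stood at 6.47, 6.63, 6.73, 6.07 and 6.48 in EAE and at 5.70, 5.36 and 5.50 in controls. It was higher by 2.12-fold (log2 fold change 1.09, SE 0.118, limma adjusted p = 0.00559). Both sets are of a kind whose probes Affymetrix marked as shared within a sequence family, so signal from related transcripts cannot be told apart from Vamp8. The dimmer Syt3 and Napb sets and the brighter Sncg set carry the same mark. Without an array of batch 3 the brighter set still passed (limma adjusted p = 0.031), and the dimmer one did not (adjusted p = 0.0569).

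Snap23, the counterpart of Snap25 in cells outside the nervous system and in glia, stood at 6.72, 6.34, 6.26, 6.62 and 6.32 in EAE and at 5.88, 5.91 and 5.62 in controls. The groups did not overlap, and the level was higher by 1.55-fold (log2 fold change 0.63, SE 0.0972, limma adjusted p = 0.0140), with 0.84, 0.43 and 0.64 within batches. Stx3, a plasma membrane syntaxin of epithelial and immune cells and of photoreceptors, passed in its brightest probe set, which stood at 7.55, 7.01, 6.89, 7.52 and 6.84 in EAE and at 6.86, 6.69 and 6.46 in controls. EAE array 5 lay just below the highest control, and the difference was 0.48 (SE 0.0927, limma adjusted p = 0.0254). The other Stx3 sets, both below the array median on every array, differed by 0.22 (adjusted p = 0.115) and -0.03 (adjusted p = 0.805). Neither Snap23 (limma adjusted p = 0.0948) nor Stx3 (adjusted p = 0.122) passed without an array of batch 3, and without batch in the model Stx3 did not pass (difference 0.49, adjusted p = 0.114).

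Vamp4, a SNARE of the trans-Golgi network and endosomes, was called lower in both of its probe sets. The brighter set stood at 8.29, 7.89, 7.84, 8.41 and 8.13 in EAE and at 8.76, 8.80 and 8.14 in controls, where control array 3 lay among the EAE arrays (difference -0.56, SE 0.132, limma adjusted p = 0.0433). The dimmer set differed by -0.47 (limma adjusted p = 0.0381). Without batch in the model neither passed (adjusted p = 0.129 and 0.0808), and without an array of batch 3 the values were 0.0896 and 0.189 in limma.

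Vamp3, the widely used relative of Vamp2, and Stx4a, the syntaxin that pairs with Snap23, lay below the controls on all 5 EAE arrays and were not called. Vamp3 stood at 7.54 to 8.19 in EAE and 8.20 to 8.25 in controls (difference -0.28, limma adjusted p = 0.0817). Stx4a stood at 9.01, 7.97, 8.89, 8.83 and 7.44 in EAE and at 9.12, 9.13 and 9.05 in controls, with EAE arrays 2 and 5 far below the other EAE arrays (difference -0.48, SE 0.223, limma adjusted p = 0.220). The syntaxins Stx2, Stx5a, Stx6, Stx7, Stx8, Stx12 and Stx18 and the VAMPs Vamp5 and Vamp7 differed by between -0.20 and 0.14, and none was called. Snap47, a SNAP-25 relative found in many tissues, differed by -0.44 (limma adjusted p = 0.103), with EAE arrays 1 and 4 the lowest.

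**Figure D3:**
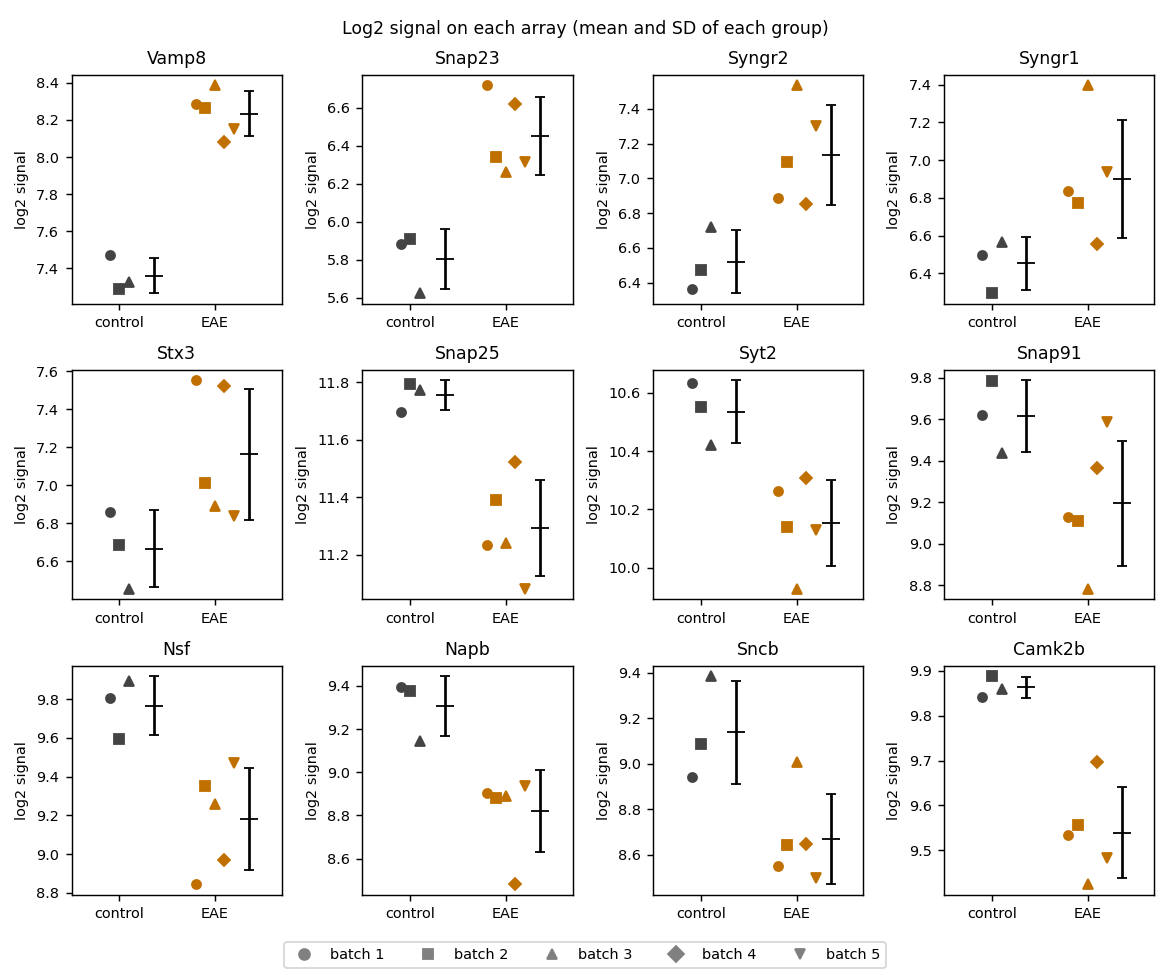
Log2 signal (vertical axis, a separate range for each gene) of 12 called genes on each array, by group (horizontal axis), with marker shape for batch and bars for the mean and SD of each group (5 EAE and 3 control arrays). The groups separate in Vamp8, Snap23, Syngr2, Snap25, Syt2, Nsf, Napb and Camk2b and overlap in Syngr1, Stx3, Snap91 and Sncb.

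Of the 8 genes for SNARE regulators, priming and recycling factors, 3 were called lower (13.5% of all genes were), and these were Nsf, Napb and Napa, which encode factors that take SNARE complexes apart. Nsf, the ATPase that separates used SNARE complexes, stood at 8.84, 9.35, 9.26, 8.97 and 9.47 in EAE and at 9.81, 9.60 and 9.90 in controls. The groups did not overlap, and the level was lower by 1.53-fold (log2 fold change -0.61, SE 0.145, limma adjusted p = 0.0435), although the differences within batches ranged from -0.96 to -0.24. Napb, the brain form of the SNAP adaptor that recruits NSF, stood at 8.90, 8.88, 8.89, 8.48 and 8.94 in EAE and at 9.40, 9.38 and 9.15 in controls. It was lower by 1.33-fold (difference -0.41, SE 0.0801, limma adjusted p = 0.0258), and a dimmer Napb set, also lower on all 5 EAE arrays, differed by -0.59 (adjusted p = 0.108).

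Napa, the adaptor form of all tissues, was called with a smaller difference. It stood at 8.08, 8.05, 8.11, 8.29 and 8.50 in EAE and at 8.36, 8.35 and 8.40 in controls, so EAE array 5 lay above every control. Within the shared batches the differences were nearly equal (-0.28, -0.30 and -0.29), and limma gave -0.29 (SE 0.0626, adjusted p = 0.0345). Without batch in the model, which brings in EAE arrays 4 and 5, the Napa difference was -0.17 (limma adjusted p = 0.322). Without an array of batch 3 the limma adjusted p was 0.198 for Nsf, 0.0647 for Napb and 0.145 for Napa.

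Among the factors that prepare vesicles for fusion, Stxbp2 (Munc18-2), which binds syntaxins in immune and epithelial cells, was called in only 1 of its 2 probe sets. The dimmer set stood at 5.46, 5.74, 6.18, 5.46 and 5.38 in EAE and at 5.05, 5.07 and 5.08 in controls, higher on all EAE arrays by 1.65-fold (difference 0.72, SE 0.140, limma adjusted p = 0.0259; 0.0847 without an array of batch 3). The brighter set, for which probe selection was relaxed, stood at 6.25, 6.11, 6.34, 6.55 and 6.57 in EAE and at 5.97, 6.30 and 6.82 in controls (difference -0.13, adjusted p = 0.637). Stxbp3, the Munc18 form of wide use, differed by 0.29 (limma adjusted p = 0.245). The complexins, which clamp the SNARE complex before release, differed by -0.41 (Cplx1, adjusted p = 0.358) and -0.26 (Cplx2, adjusted p = 0.196). Cplx1 stood at 7.94, 8.58, 9.51, 8.01 and 8.36 in EAE and at 9.15, 8.66 and 9.46 in controls, and its differences within batches ran from -1.21 to 0.05. Unc13b, a vesicle priming factor, differed by -0.17, and Bsn, the large scaffold of the active zone, by 0.02 (limma adjusted p = 0.175 and 0.850).

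Sncb, which encodes beta-synuclein, a presynaptic protein, was lower by 1.32-fold. It stood at 8.55, 8.64, 9.01, 8.65 and 8.50 in EAE and at 8.94, 9.09 and 9.39 in controls. EAE array 3 exceeded control array 1, yet each EAE array lay below the control of its own batch, by 0.39, 0.44 and 0.38 (limma log2 fold change -0.41, SE 0.0637, adjusted p = 0.0149; 0.0847 without an array of batch 3). The brighter set of Sncg (gamma-synuclein, abundant in motor and sensory neurons) lay below the controls on all EAE arrays (7.20 to 7.48 against 7.60 to 7.71) and was not called (difference -0.26, limma adjusted p = 0.103), and the dimmer set differed by -0.46 (adjusted p = 0.391).

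On the postsynaptic side 1 of 6 scaffold genes and 1 of 3 CaM kinase II genes were called, both lower, where 13.5% of all genes were called lower. Homer2, an adaptor that links metabotropic glutamate receptors to intracellular calcium stores, stood at 5.51, 5.46, 5.36, 5.45 and 5.19 in EAE and at 6.15, 5.98 and 5.73 in controls. The groups did not overlap, and the level was lower by 1.42-fold (log2 fold change -0.51, SE 0.0805, limma adjusted p = 0.0151). Camk2b, the beta subunit of CaM kinase II, which binds actin in spines, stood at 9.53, 9.56, 9.42, 9.70 and 9.48 in EAE and at 9.84, 9.89 and 9.86 in controls. It was lower by 1.28-fold with no overlap (difference -0.36, SE 0.0672, limma adjusted p = 0.0238), and within batches by 0.31, 0.33 and 0.44. With an array of batch 3 left out, the limma adjusted p was 0.0568 for Homer2 and 0.125 for Camk2b.

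Dlg1 (SAP97), a scaffold of synapses and of epithelial junctions, and Dlg3 (SAP102) had negative differences that missed the threshold. Dlg1 stood at 8.37, 8.14, 8.17, 8.72 and 7.99 in EAE and at 8.49, 8.84 and 8.97 in controls (difference -0.54, SE 0.147, limma adjusted p = 0.0637), and EAE array 4 lay within the control range. Dlg3 differed by -0.38 (adjusted p = 0.0562). Dlg4, which encodes PSD-95, the main scaffold of excitatory synapses, stood at 6.67, 7.42, 7.30, 6.80 and 7.42 in EAE and at 7.22, 7.12 and 7.43 in controls. EAE arrays 2, 3 and 5 lay within the control range and arrays 1 and 4 lay below them (difference -0.12, limma adjusted p = 0.682). Homer1, Homer3 and Camk2d differed by 0.10 or less in size, and so did Camk2a, the alpha subunit, whose probe sets lay between 3.78 and 4.86 on all arrays, below the array median.

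Several of these families or related families hold a neuronal form and a form of wider use. For 9 such pairs the genes were compared within each array, as the neuronal minus the other gene's log2 signal. The pairs were chosen with earlier results of these data known, so the exact p-values describe these pairs and are not independent support. Syp and Syngr2 come from related families, and Syngr1, also a synaptogyrin, was called higher too (limma log2 fold change 0.55, adjusted p = 0.0297). Snap25 minus Snap23 was lower in EAE by 1.11 log2 units, Syp minus Syngr2 by 1.52 and Vamp1 minus Vamp8 by 1.58, and in these 3 pairs every EAE array lay below every control. An exact two-sided permutation test, with 56 ways to regroup the 8 arrays, gave p = 0.0179, the smallest it can give, for the first 2 pairs and p = 0.0357 for Vamp1 minus Vamp8. Adjusted over the 9 pairs by Benjamini-Hochberg these exact p-values were 0.0804, 0.0804 and 0.107, so none passed. Within batches 1, 2 and 3 the difference was -1.30, -0.83 and -1.17 for Snap25 minus Snap23, -1.46, -1.25 and -0.80 for Syp minus Syngr2, and -2.74, -0.55 and -0.89 for Vamp1 minus Vamp8.

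The other 6 pairs overlapped between groups. The difference was -0.32 for Napb minus Napa (exact p = 0.143) and -0.13 for Stx1a minus Stx7 (exact p = 0.214). It was positive for Dlg4 minus Dlg1 (0.36, exact p = 0.357), Stx1a minus Stx4a (0.33, exact p = 0.429), Vamp2 minus Vamp3 (0.15, exact p = 0.679) and Camk2a minus Camk2d (0.09, exact p = 0.714). With 5 arrays against 3 these tests leave wide room for differences that were not detectable.

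**Figure D4:**
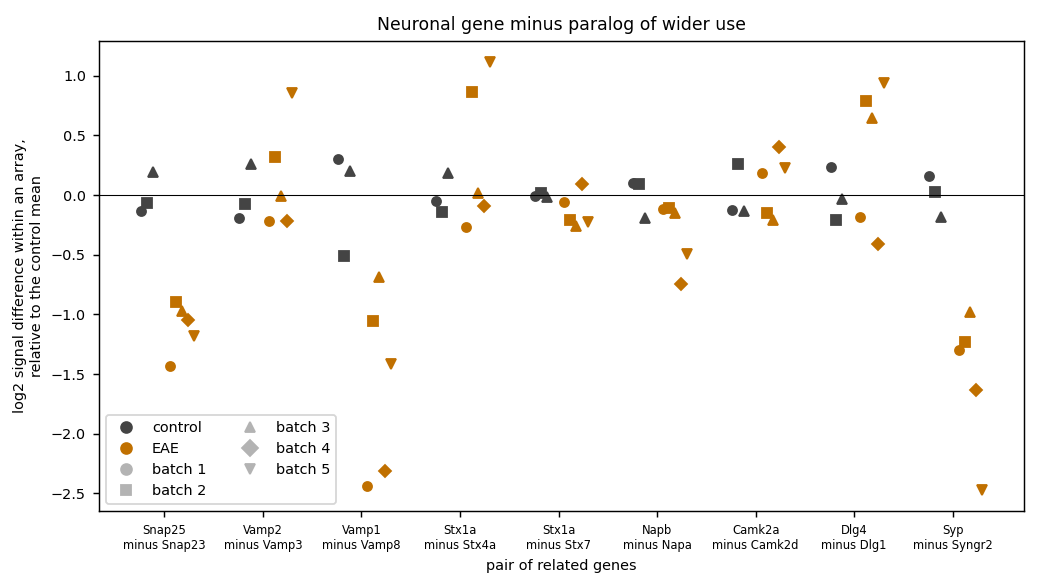
Difference in log2 signal between a neuronal gene and its relative of wider use on each array (vertical axis), set to a control mean of 0, for 9 pairs (horizontal axis), with colour for group and marker shape for batch. All 5 EAE arrays lie below all 3 controls in Snap25 minus Snap23, Vamp1 minus Vamp8 and Syp minus Syngr2, and EAE and control arrays overlap in the other 6 pairs.

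Other genes of the synapse that the symbols above do not cover were taken from a list of 88 genes, of which 50 were measured. Of these 23 were called lower (13.5% of all genes were) and 1, Rab3d, a vesicle GTPase of secretory cells, was called higher (log2 fold change 0.59, limma adjusted p = 0.0103), with a median of -0.39. Those with the largest differences were Apba2, an adaptor of the presynaptic terminal (-0.94, adjusted p = 0.00828), Slc32a1, which loads GABA and glycine into vesicles (-0.84, adjusted p = 0.0028), Gabra2, a GABA receptor subunit (-0.84, adjusted p = 0.00763), and Pclo, the active zone scaffold Piccolo (-0.75, adjusted p = 0.00372), all from limma and all below the controls on every EAE array. Without an array of batch 3 the count was 7 lower, and without one of batch 2 it was 11.

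Markers of neuron cell bodies and axons moved with the synaptic genes. Of 26 measured, 14 were called lower by limma (13.5% of all genes were), with a median of -0.50 and 6 lower without an array of batch 3. The mean log2 signal of the 26 genes was 8.28 to 8.49 on EAE arrays and 8.94 to 9.00 on controls. The 58 synaptic genes lay 0.24, 0.17, 0.10, 0.25 and 0.21 below the control mean on EAE arrays 1 to 5, while the 3 controls lay within 0.04 of it.

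Markers of other cells moved as well, where 9.19% of all genes were called higher and 13.5% lower. Of 20 macrophage and microglia markers 18 were called higher, and their mean log2 signal was 8.12 to 8.51 on EAE arrays and 6.11 to 6.20 on controls. Of 10 neutrophil markers 6 were higher (6.96 to 7.35 against 5.34 to 5.40), and of 13 T cell markers 5 were higher and 1, Thy1, which neurons also express, was lower (5.95 to 6.06 against 5.74 to 5.82). Of 9 myelin markers 3 were lower (8.67 to 9.13 against 9.28 to 9.56), and of 10 astrocyte markers 3 were lower and 1 was higher (9.05 to 9.44 against 9.49 to 9.61). The 14 skeletal muscle markers had 1 called, Pvalb, which is also found in neurons, and the 3 peripheral nerve markers had 1, Egr2. The part of these cells in the values of Vamp8, Snap23, Syngr2, Stx3 and the other members was not tested.

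RNA integrity differed between arrays, and the values of some synaptic genes moved with it. For Gapdh, the log2 signal at the 3′ end minus that at the 5′ end, which grows as RNA is cut, was 1.46, 0.65, 0.46, 2.07 and 0.78 on EAE arrays 1 to 5 and 0.53, 0.97 and 0.93 on controls. EAE arrays 1 and 4 thus stood above the other 6. For beta-actin the values were 2.35, 1.63, 1.11, 2.79 and 1.83 in EAE and 2.20, 2.29 and 1.62 in controls, again highest on EAE arrays 1 and 4. These arrays were the 2 lowest of the 5 EAE arrays in 19 of the 72 members (26.4%), against 14.7% of all probe sets, and the 2 highest in 10 (13.9%, against 17.4%).

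The largest such gaps were those of Vamp1, Syt11, Cplx1 and a dimmer set of Sncg, where EAE arrays 1 and 4 lay 1.41, 0.93, 0.85 and 0.85 log2 units below the other EAE arrays. Among called members, Nsf, Syngr2 and the dimmer Vamp8 set were also lowest on these EAE arrays, by 0.45, 0.44 and 0.34. Snap23, Stx3 (brightest set) and the brighter Vamp4 and Syt2 sets were instead highest on EAE arrays 1 and 4. For Snap25 and Camk2b EAE array 4 was the highest EAE array. Leaving out EAE arrays 1 and 4, a step chosen after the values were seen, left 8 members lower and 6 higher with batch in the model (983 and 900 of all probe sets) and 9 lower and 5 higher without (1045 and 992). With batch in the model EAE array 4 does not enter the fold changes. That fit therefore repeats the one without EAE array 1, rests on batches 2 and 3, and cannot show the effect of array 4. Without EAE arrays 1 and 4 the Nsf difference was -0.44 with batch (limma adjusted p = 0.0812) and -0.40 without (adjusted p = 0.0354). The Stx3 difference was 0.38 with batch (limma adjusted p = 0.0551) and 0.25 without (adjusted p = 0.190), so its call ended. The brighter Vamp4 set also lost its call (limma adjusted p = 0.0758 and 0.0682). Snap23 (0.0302 and 0.0121) and the brighter Syt2 set (0.0346 and 0.0149) kept theirs. EAE arrays 2, 3 and 5 lay below all 3 controls in 20 of the 72 members and above them in 7, against 22.3% and 13.7% of all probe sets. The part of RNA integrity in these values was not tested.

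**Figure D5:**
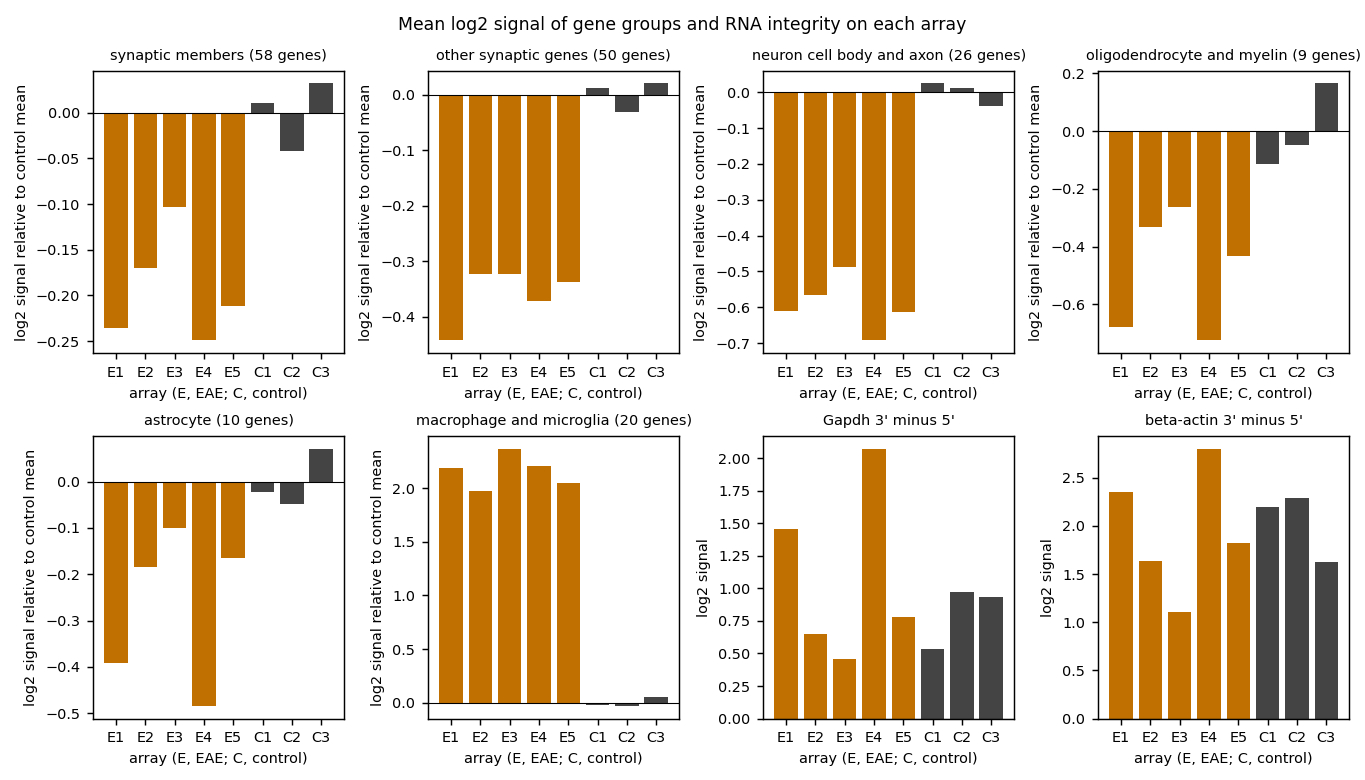
Mean log2 signal of gene groups on each array, relative to the control mean (6 panels), and the excess of 3′ over 5′ signal, in log2 units, for Gapdh and beta-actin (last 2 panels), with a bar for each EAE (E1 to E5) and control (C1 to C3) array. The synaptic members lie 0.10 to 0.25 below the control mean on the EAE arrays, the macrophage and microglia markers lie far above it, and Gapdh and beta-actin are highest on EAE arrays 1 and 4.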

How the data were processed

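Total RNA of mouse spinal cords, pooled from 2 animals per array, was hybridised to Affymetrix MG U74Av2 arrays. The deposited log2 values were made by the authors in Partek with RMA, quantile normalization and an adjustment for GC content; no detection calls were used here. From these values, the 66 control probe sets were set aside and 12422 were tested, of which 10833 had 1 gene symbol in the platform annotation, 396 several and 1193 none. The 58 member symbols matched RefSeq of GRCm38.p6, and 0 changed. Limma 3.58.1 in R 4.3.3 fitted treatment and batch, the terms of the study's methods. It had 2 residual and 3.05 prior degrees of freedom, with Benjamini-Hochberg adjustment over all probe sets. The procedure was also run on simulated data, and the share of small differences that it recovers is not given here. Nothing in the labels says that arrays of a group came from separate inductions, so p-values describe these pools alone. With batch in the model, the limma p-values measure how the difference between EAE and control varied among the batches that held both groups. They do not measure the spread between all pools, and EAE arrays in batches without a control do not enter them.

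Batch numbers in the labels mark a shared processing day and so pair the first 3 arrays of both groups. Same-numbered arrays deviated from their group means with correlations of 0.302, -0.231 and 0.412 over all probe sets and 0.0513, -0.589 and 0.361 over the members.

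The members, lists and pairs were chosen with earlier results of these data known. Genes were named by role: up to 4 called genes with the largest difference in their brightest probe set, or where none passed up to 2 with the smallest p, the genes of the pairs, and genes whose probe sets disagreed. Other members are named to account for each of them. For other lists, up to 4 called genes were named; Rab3d, Thy1, Pvalb and Egr2 were added after their values were seen. Alternatives covered the batch term, moderation, scaling, filters, the probe set used for a gene, the threshold and each array left out. Figures were drawn with matplotlib 3.10.9.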

Additional observations from a re-analysis of the deposited data

Results flagged for a closer look

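Among 90 groups of 5 EAE arrays tested (the 72 probe sets and the gene lists), 2 held an array far from the other 4 by Dixon's ratio, where chance gives about 1 in 20. For Napb, the brain form of the SNAP adaptor, EAE array 4 stood at 8.48 log2 signal in the probe set that was called lower, while the other EAE arrays stood at 8.88 to 8.94. That array had no control in its batch and does not enter the fold change. For Sncb (beta-synuclein), EAE array 3 stood at 9.01, while the other EAE arrays stood at 8.50 to 8.65. Control array 3, of the same batch, was likewise the highest control for Sncb, at 9.39.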

How the results depend on the processing

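The counts of 7 higher and 12 lower members became 5 and 12 with no replicate block, 5 and 14 with the block as a random effect, 8 and 11 with an intensity trend, 7 and 16 with median centring and 7 and 13 with array weights. Further quantile normalization left 7 lower, an adjusted p threshold of 0.01 left 3 higher and 1 lower, and limma without moderation of variances called 0 and 0, with 6 higher and 10 lower at an unadjusted p under 0.05 and 1 and 0 calls over all probe sets. Leaving out 1 array at a time gave 1 to 7 higher and 0 to 12 lower. The low ends came from batch 3, and leaving out either array of batch 2 gave 4 higher and 5 lower. The same arrays set the other synaptic genes (7 to 23 lower of 50) and the neuron markers (6 to 14 lower of 26). At the threshold of 0.01 these were 7 and 7, without moderation 0 and 0, and without EAE arrays 1 and 4 or the block the neuron markers were 9. With no replicate block Napa, Snap91, Stx3, Syngr1, both Vamp4 sets and the dimmer Syt3 set were no longer called, while Stx1a, Syn2, Syt1, the brighter Sncg set and the dimmer Napb set were called lower, so 5 of the 12 lower members changed. The brighter Stxbp2 value turned from -0.13 to 0.30 (limma adjusted p = 0.0289) when the probe sets of each gene were averaged. Over the named probe sets, 680 values under an alternative kept their call or lack of one, 147 lost and 17 gained a call and 1 reversed. Among the 680, values that were not called could change sign, as the dimmer Vamp2 set did under 6 of 19 alternatives. Vamp8 (brighter set) passed under 21 of 22 alternatives. These alternatives were not all separate checks. With batch in the model, leaving out EAE array 4 or 5 repeated the reported fit. Leaving out the control array of batch 1, 2 or 3 repeated the fit without the EAE array of that batch. The tallies count such repeats. Unadjusted, Vamp1 minus Vamp8 left the threshold without any single array other than EAE array 3 (exact p 0.0571 to 0.0952, differences -1.83 to -1.37). Low signal limits Camk2a, Homer1 and the dim synaptotagmins, for which a change in either direction may not be detectable.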
